A study of Arabidopsis thaliana with 4 samples.

Results

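The plant defensin and thionin genes were examined in wild type (WT) and in vip3 mutants of Arabidopsis thaliana. Members were the probe sets whose only gene symbol in the platform annotation began with PDF1., PDF2. or PDF3. (defensins) or with THI2. (thionins), which left out the peptide deformylases PDF1A and PDF1B. The rule found 7 of the 22746 probe sets compared. These were the defensin genes PDF1.2 (AT5G44420), PDF1.2b (AT2G26020), PDF1.4 (AT1G19610), PDF2.1 (AT2G02120) and PDF2.5 (AT5G63660), and the thionin genes THI2.1 (AT1G72260) and THI2.2 (AT5G36910). The rule reads symbols, but the family itself was selected on the signals of WT against vip3 in these arrays, so the values of the members in that comparison are a description and carry no p-value.

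Total RNA came from the aerial tissue of 14-d-old plants grown on soil. Both genotypes were represented by 2 Affymetrix ATH1 arrays. Plants of the mutant group were homozygous for vip3-1, a null allele of VIP3, and no treatment was applied to either genotype according to the sources used here. VIP3 encodes a subunit of plant Paf1C, a complex associated with elongating RNA polymerase II. Replicates were pools, each made from 3 separately derived samples with over 100 plants in each, so the spread between arrays was that between pools. A single mutant allele was profiled.

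Defensins and thionins are small secreted peptides held in a compact fold by several disulfide bridges, and many of them inhibit the growth of fungi by acting at the fungal membrane. In Arabidopsis, PDF1.2 is induced by jasmonate and ethylene acting together and is widely used as a marker of that branch of defence, in which ERF-type transcription factors act upstream. THI2.1 is a jasmonate-responsive gene whose induction requires the jasmonate receptor. The salicylate branch of defence is known to antagonise the expression of PDF1.2.

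In the vip3 arrays PDF1.2, PDF1.2b and THI2.2 were several-fold lower than in the WT arrays. THI2.1 and PDF1.4 had overlapping signals. PDF2.1 and PDF2.5 had both mutant signals above both WT signals, but at levels close to the bottom of the range. Signals here are MAS5 signals on a linear scale, brought to a common target on each array, and they are not comparable between probe sets. In bulk tissue, fewer cells that express a gene and less RNA per cell cannot be told apart.

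**Figure D1:**
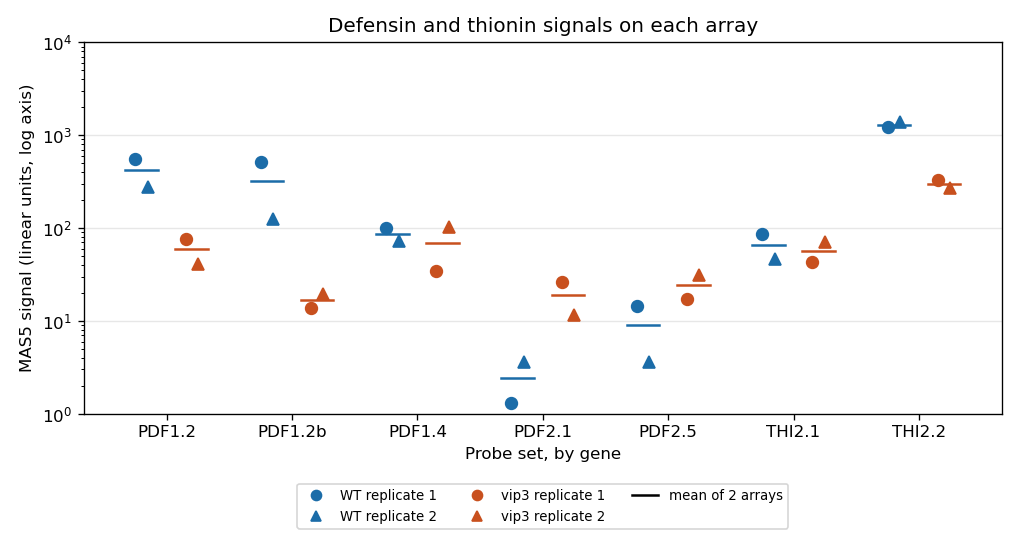
MAS5 signal (log axis) of the 7 probe sets on each of the 4 arrays, with circles for replicate 1, triangles for replicate 2 and a bar for the mean of 2 arrays. WT and vip3 are separated for PDF1.2, PDF1.2b and THI2.2, which were lower in vip3, and for the dim PDF2.1 and PDF2.5, which were higher, whereas THI2.1 and PDF1.4 overlap.

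PDF1.2 had signals of 560.7 and 276.4 on the WT arrays and of 76.8 and 41.5 on the vip3 arrays. Both mutant arrays lay below both WT arrays, and the lower WT signal was 3.6 times the higher vip3 signal. The mean fell from 419 ± 201 (SD, n = 2) to 59.2 ± 25, a ratio of WT to vip3 of 7.08. The fitted log2 fold change, as vip3 minus WT, was -2.80 ± 0.40 (SE).

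PDF1.2b, a close paralogue of PDF1.2, had signals of 514.3 and 125.5 in WT, against 13.8 and 19.5 in vip3. The groups were again separate, with the lower WT signal 6.44 times the higher vip3 signal. The means were 319.9 ± 275 and 16.7 ± 4.03 (SD, n = 2), and the fitted log2 fold change was -3.95 ± 0.65 (SE). Among the members only this probe set ended in _x_at, the suffix given to probe sets with probes that can also match other transcripts. Its signal can therefore hold those of related defensin genes, and it is not an independent measurement of PDF1.2b alone. In the RefSeq gene order PDF1.2b lies next to PDF1.3, and PDF1.2 next to PDF1.2c. Neither of these neighbours was the only gene named for a probe set, and they have no value here.

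THI2.2 encodes a thionin of the same group as THI2.1, and of the members it had the closest agreement between arrays in WT. Its signals were 1224.4 and 1381.8 in WT, against 327.6 and 269 in vip3. The lower WT signal was 3.74 times the higher vip3 signal, against a ratio of 1.13 between the WT arrays. The means were 1303 ± 111 and 298 ± 41.4 (SD, n = 2), a ratio of WT to vip3 of 4.37, and the fitted log2 fold change was -2.13 ± 0.12 (SE).

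THI2.1 did not follow THI2.2. Its signals were 86.5 and 46.3 in WT, against 43.5 and 70.6 in vip3, so that one vip3 array lay between the WT arrays. The fitted log2 fold change was -0.19 ± 0.48 (SE), smaller than its error. The difference between the responses of THI2.1 and THI2.2 was not tested.

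PDF1.4, annotated as a defensin gene, had signals of 100 and 73.4 in WT, against 34.3 and 102.4 in vip3. The highest and the lowest of these were both from vip3, and the mutant arrays differed by 2.99-fold. The fitted log2 fold change was -0.53 ± 0.54 (SE).

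The remaining defensins were near the bottom of the signal range. PDF2.5, which has been linked to cadmium tolerance, had signals of 14.4 and 3.6 in WT, against 17.2 and 31.6 in vip3. PDF2.1 had 1.3 and 3.6 in WT, against 26.3 and 11.7 in vip3. All signals of both genes were under the 25th percentile of their own array, which was between 28.5 and 38.2 over the arrays. The vip3 signals of both lay above their WT signals, although for PDF2.5 the lower vip3 signal was only 1.19 times the higher WT signal. The fitted log2 fold changes were 1.70 ± 0.97 (SE) for PDF2.5 and 3.02 ± 1.07 for PDF2.1.

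Across the family, 3 of 7 members (PDF1.2, PDF1.2b and THI2.2) passed an adjusted p under 0.05 in limma, all of them lower in vip3, and none was called higher. Of all probe sets 9.8% passed, with 5.07% lower and 4.73% higher in vip3. When calls needed a 2-fold change and an unadjusted p under 0.001, the same 3 members passed, against 1.56% of all probe sets. A further criterion is that the arrays of the genotypes do not overlap. It was met by 3 members in the lower direction and by 2 in the higher direction, against 26.3% and 25.9% of all probe sets (52.2% in either direction). With a constant prior variance in place of one that follows the signal, 0 members and 0 probe sets were called in limma, while 4 members and 3798 probe sets had an unadjusted p under 0.05. Since the family was selected on this comparison, nothing is read from these counts. The median log2 fold change was -0.53 over the members and 0.0012 over all probe sets.

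The size of the fold changes depended on how far a signal lay above the bottom of the range. With log2 of the signal plus 16, the log2 fold change of PDF2.1 shrank from 3.02 to 0.89 ± 0.31 (SE) and that of PDF2.5 from 1.70 to 0.70 ± 0.35. PDF1.2b went from -3.95 to -3.07 ± 0.60. The vip3 signals of PDF1.2b were themselves under the 25th percentile of their arrays, so that its WT to vip3 ratio was poorly determined. With log2 of the signal plus 64, PDF1.2, PDF1.2b and THI2.2 had changes of -1.92 ± 0.32, -2.04 ± 0.50 and -1.92 ± 0.11, and PDF1.2b was no longer called. THI2.2 moved least of these.

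**Figure D2:**
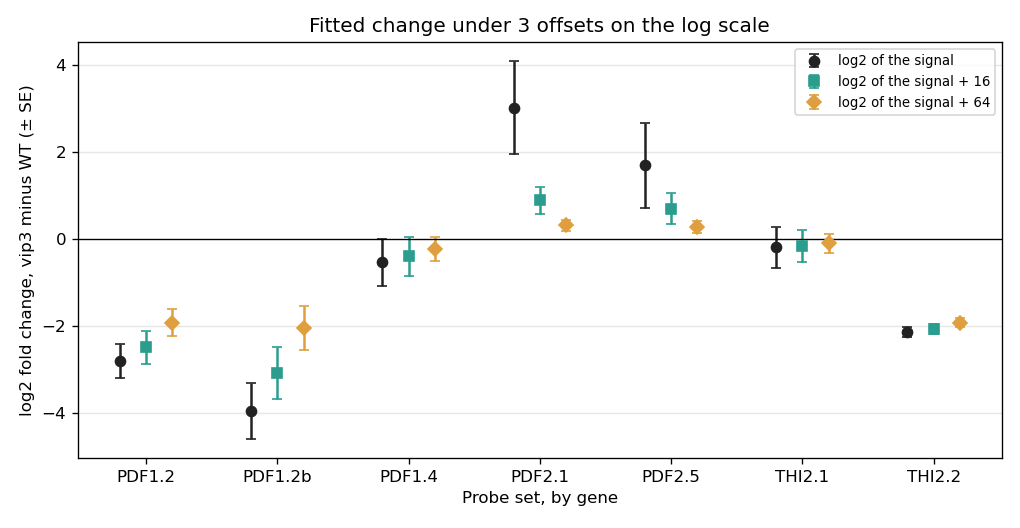
Fitted log2 fold change (vip3 minus WT, points) with its SE (bars) for the 7 probe sets, from log2 of the signal, of the signal plus 16 and of the signal plus 64. The increases of PDF2.1 and PDF2.5 shrank to 0.32 and 0.28 at the largest offset, whereas THI2.2 went from -2.13 to -1.92.

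Variation between arrays of a genotype, taken from the same arrays on which the family was selected, was uneven over the family. The WT signal of PDF1.2 was 2.03 times higher on replicate 1 than on replicate 2, and that of PDF1.2b was 4.1 times higher. The comparison was with the 1000 probe sets closest in mean log2 signal over all 4 arrays. Of these, 98.2% and 99.6% had a smaller difference between the WT arrays than PDF1.2 and PDF1.2b. Because the probe set for PDF1.2b can read related transcripts, both observations may hold part of the same RNA. THI2.1 also had its higher WT signal on replicate 1 (1.87-fold, 89.4%), while THI2.2 had its higher WT signal on replicate 2.

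Between the vip3 arrays PDF1.2 differed by 1.85-fold, more than 99% of the probe sets of like level, and PDF1.4 by 2.99-fold, more than 99.2%. PDF2.1 and PDF2.5, at the lowest signals, differed between arrays by 1.84-fold to 4-fold, which was within the usual range at their level (34% to 69.6% of the probe sets of like level differed by less). Of the genes lower in vip3, PDF1.2 and PDF1.2b therefore had WT levels that were not stable between pools. THI2.2 had a WT level that was steadier than theirs, though 75.7% of the probe sets of like level differed by less. Between the vip3 arrays THI2.2 differed by 1.22-fold, more than 89.8% of the probe sets of like level. Like level was set by the mean log2 signal over all 4 arrays, which lies between the genotypes for PDF1.2, PDF1.2b and THI2.2. Their vip3 spread was thus ranked among probe sets brighter than their vip3 level, and their WT spread among dimmer ones. These percentages are descriptions over probe sets and not tests.

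Removal of 1 array at a time left the direction of 5 members as it was. PDF1.2 stayed between -3.31 and -2.29 on the log2 scale, PDF1.2b between -4.97 and -2.94 and THI2.2 between -2.27 and -1.99. In each of these fits 1 genotype had a single array, assumed to vary like the other genotype. The error came from the arrays of that other genotype and from the prior variance of limma, taken over all probe sets. In limma, 2 members (THI2.2 and PDF1.2) were called without WT replicate 1, against 4.97% of all probe sets, and 3 (also PDF1.2b) without WT replicate 2, against 5.86%. Only THI2.2 of the members was called without vip3 replicate 1, against 1.94%, and without vip3 replicate 2, against 1.98%. As with all arrays, these calls describe members selected on the same signals and carry no weight as a test. The log2 fold change of THI2.1 turned to 0.26 without WT replicate 1 and to 0.16 without vip3 replicate 1. That of PDF1.4 ranged from -1.32 without vip3 replicate 2 to 0.26 without vip3 replicate 1, so that 1 mutant array set its sign.

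**Figure D3:**
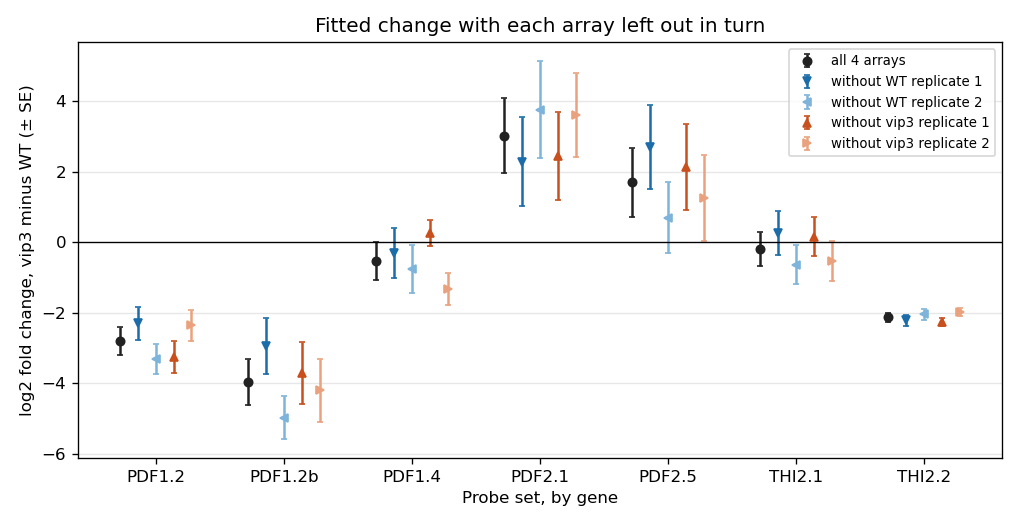
Fitted log2 fold change (vip3 minus WT, points) with its SE (bars) for the 7 probe sets, with all 4 arrays and with each array left out. THI2.2 stayed between -2.27 and -1.99, while THI2.1 and PDF1.4 crossed 0.

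The RefSeq gene table lists 15 loci under a PDF or THI2 name or synonym, of which 12 had a probe set named for them alone. Besides the 7 members these were 5 defensin genes that the annotation names LCR, for low-molecular-weight cysteine-rich: LCR67 (PDF1.1), LCR69 (PDF2.2), LCR68 (PDF2.3), LCR66 (PDF2.4) and LCR72 (PDF2.6). Of these relatives 1 of 5 was called in limma, against 9.8% of all probe sets, a count too small to set the group apart. It was LCR68, with signals of 4251 and 4150 in WT, against 3389 and 3345 in vip3. All arrays of the mutant lay below those of WT by a small margin, the lower WT signal being 1.22 times the higher vip3 signal. The log2 fold change was -0.32 ± 0.07 (SE, adjusted p = 0.025 in limma). It was not called when any 1 array was left out (log2 fold change between -0.34 and -0.30). In those fits the error came from the arrays of the other genotype and the prior variance of limma, taken over all probe sets.

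LCR69, the other bright relative, had 6717 and 7362 in WT, against 5829 and 6939 in vip3, so that the genotypes overlapped (log2 fold change -0.15 ± 0.10 SE, limma adjusted p = 0.46). LCR72, which has been linked to cadmium tolerance like PDF2.5, had 21.3 and 32.9 in WT, against 10 and 5.3 in vip3, with a log2 fold change of -1.86 ± 0.82 (limma adjusted p = 0.22). LCR66 had 13.9 and 19.8 in WT, against 21.5 and 30.7 in vip3, and LCR67 had signals between 2.6 and 3.6. Neither was called. The median log2 fold change of the 5 relatives was -0.17. PDF2.1, LCR68 and LCR72 follow each other in the gene order on chromosome 2, and LCR69 lies 1 coding gene away from PDF2.1. Within this run, LCR68 and LCR72 had negative fold changes while PDF2.1, between LCR69 and LCR68, had a positive one at very low signal. None of these probe sets carried a suffix for shared probes, and hybridisation of one paralogue to the probes of another was not tested.

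**Figure D4:**
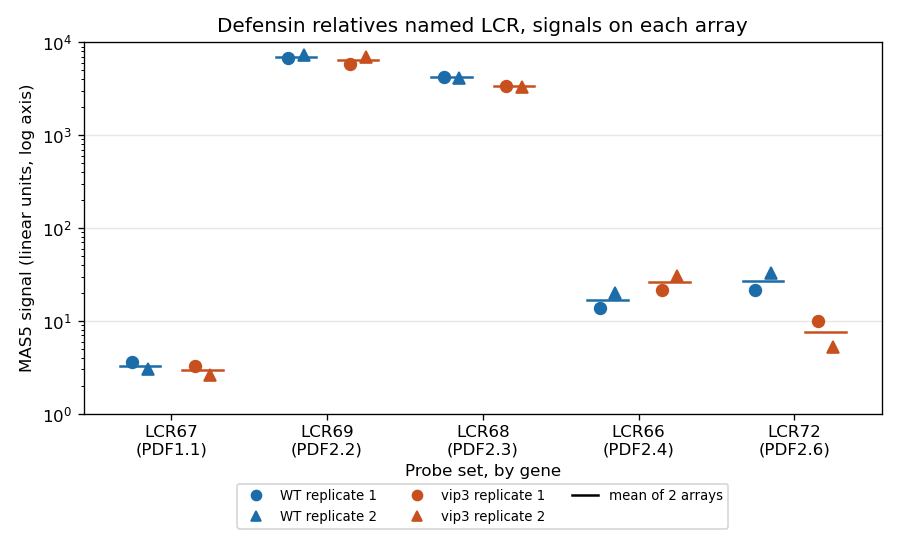
MAS5 signal (log axis) of the 5 defensin relatives named LCR on each of the 4 arrays, with circles for replicate 1, triangles for replicate 2 and a bar for the mean of 2 arrays. LCR68 was lower on both vip3 arrays by a small margin and LCR69 overlapped, while LCR66, LCR67 and LCR72 had signals of at most 32.9.

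Genes of the defence branches, upstream regulators as well as outputs, were sought in 9 lists. These covered the jasmonate, ethylene and salicylate branches, camalexin and other small cysteine-rich peptides. Outside the peptides, 12 genes from 6 lists had a named probe set. None of the 12 was called in limma, against 9.8% of all probe sets, and 3 had an unadjusted p under 0.05 (JMT, OPCL1 and SAG101), against 23.7% of all probe sets. The genotypes did not overlap for 6 of the 12, against 52.2% of all probe sets. Their log2 fold changes were between -0.93 and 0.74 with a median of 0. The lists for wound outputs and camalexin had no named probe set, so that those outputs have no value here. Most genes of the other lists also lacked one.

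In jasmonate synthesis, JMT, the enzyme that makes methyl jasmonate, had 109.9 and 111.1 in WT, against 51.2 and 65.6 in vip3 (log2 fold change -0.93 ± 0.32 SE, limma adjusted p = 0.13). Its arrays did not overlap, but the change was not called under any setting in which it was tested. OPCL1, a CoA ligase of jasmonate synthesis in the peroxisome, had 825.8 and 966.3 in WT, against 796 and 686.8 in vip3 (adjusted p = 0.19). The lipase gene DGL had signals between 3.1 and 12.2.

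MYC3 and MYC4, bHLH transcription factors of jasmonate signalling, had log2 fold changes of -0.04 ± 0.10 and -0.01 ± 0.22 (SE). EIN3, the transcription factor through which ethylene activates ERF genes, had one of 0.08 ± 0.08, and RTE1, which promotes ethylene receptor function, one of -0.34 ± 0.16. OSM34, an osmotin-like defence gene and the single measured output of that branch outside the family, had 126.3 and 142.9 in WT, against 106.1 and 112 in vip3. The corresponding log2 fold change of -0.30 ± 0.23 was not called (limma adjusted p = 0.51).

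ORA47, an ERF-type regulator that activates jasmonate synthesis genes, differed most of the 12 between the WT arrays (5.69-fold). It had 194.8 and 1107.7 in WT, against 610.6 and 543.1 in vip3, and both mutant signals lay between those of WT. Its higher WT signal was on replicate 2, where PDF1.2 and PDF1.2b had their lower one. Its log2 fold change was 0.31 ± 0.65 (SE) with all arrays. It was -0.94 without WT replicate 1 and 1.56 without WT replicate 2. Both of those fits leave out the spread between the WT arrays. Their error comes from the vip3 arrays and the prior variance of limma, taken over all probe sets. Neither value is read as a change. AT5G61590, an ERF-type repressor of wax synthesis genes, had a log2 fold change of 0.25 ± 0.12 (limma adjusted p = 0.25). It was 0.44 without WT replicate 2, in a fit that likewise leaves out the spread between the WT arrays.

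On the salicylate side, SAG101, a lipase-like partner of the immune regulator EDS1, had 94.7 and 99.2 in WT, against 170 and 154.1 in vip3. The genotypes were separate, with a log2 fold change of 0.74 ± 0.23 (SE, limma adjusted p = 0.088), which passed only without the 40% dimmest probe sets (adjusted p = 0.036). GRX480, a glutaredoxin that represses PDF1.2 when overexpressed, had 95.9 and 136.3 in WT, against 115.4 and 115.6 in vip3, with a log2 fold change of 0.01 ± 0.27.

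**Figure D5:**
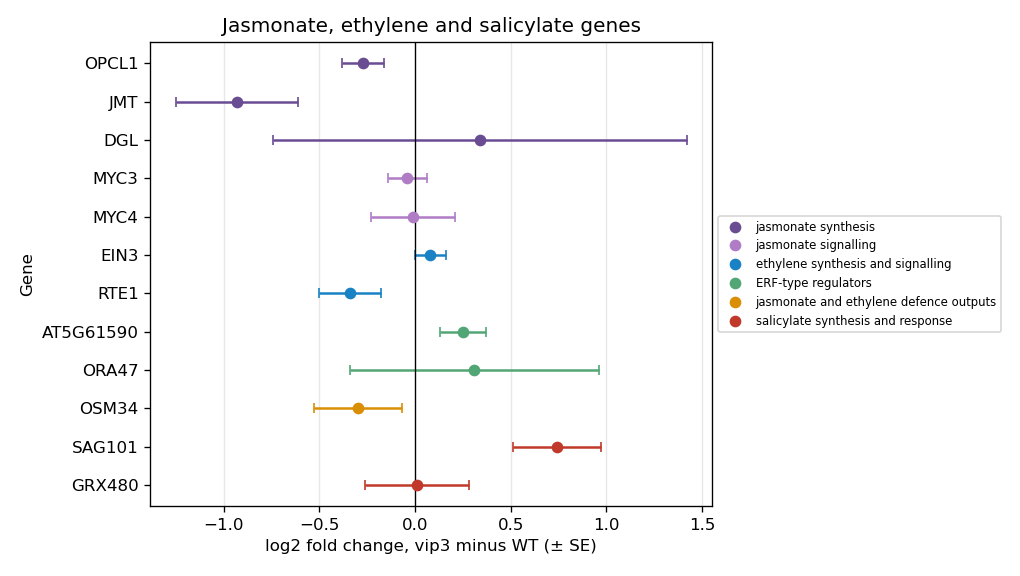
Fitted log2 fold change (vip3 minus WT, points) with its SE (bars) for the 12 measured genes of the jasmonate, ethylene and salicylate lists, coloured by list. JMT lay lowest at -0.93 and SAG101 highest at 0.74, and none of the 12 was called with all arrays.

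Probe sets with a pattern like that of each member were sought among 7232 with 1 named gene and a mean signal of at least 100. Likeness was the root mean square difference of log2 signals over the 4 arrays, each gene centred on its own mean. For THI2.2 the closest were AT4G12500, AT4G17470 and AT1G31690, at 0.137, 0.158 and 0.165. All had WT signals about as steady as those of THI2.2, such as 240.8 and 231.3 in WT against 66.3 and 58.3 in vip3 for AT4G12500. For PDF1.2 the closest were COR15B, AT1G19960 and AT3G16530, at 0.44, 0.445 and 0.457. These were less close, since none shared its differences between the WT arrays and between the vip3 arrays.

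For PDF1.2b, whose probe set can read related transcripts, the closest was PDF1.2 (0.837), so this match may hold part of the same RNA. AT5G57760 was almost as close (0.838), with 273.1 and 160 in WT, against 31.3 and 41.4 in vip3. THI2.1 was closest to AT5G08600 (0.095), whose signals of 147.1 and 94.8 in WT, against 82.8 and 132.1 in vip3, overlapped in the same way, and then to AT1G18485 and AT1G61850 (0.111 and 0.12). PDF1.4 was closest to AT3G09010, AT5G24750 and AT1G09800 (0.214 to 0.229), all of them low on vip3 replicate 1. For the dim PDF2.1 and PDF2.5 the closest genes were at 0.564 (AT5G51390) and 0.491 (AT3G15220). With 4 arrays, of which 2 share a genotype, many probe sets have similar patterns, so likeness is a description of these arrays. Among the members themselves, THI2.1 and PDF1.4 were the closest pair (0.389), followed by PDF1.2 and THI2.2 (0.58).

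The labelled tissue was checked against markers. The 4 measured genes of photosynthetic tissue (RCA, LHCB4.1, LHCB4.2 and PSAE-1) had summed signals from 75427 to 79118 in WT and from 75169 to 82662 in vip3, and none was called in limma. Of 3 measured root markers, PYK10, an abundant beta-glucosidase of roots, was lower in vip3 (log2 fold change -0.82 ± 0.12 SE, limma adjusted p = 0.0062) while EXPA7 (-0.49 ± 0.52) and EXPA18 (0.60 ± 0.98) were not called, had overlapping genotypes and lay on opposite sides of 0. The summed root signal, nearly all of it PYK10 (4739 and 5739 in WT, 2687 and 3228 in vip3), was from 4868 to 5788 in WT and from 2741 to 3327 in vip3, and no root marker was at 0. PYK10 alone of these was lower together with PDF1.2, PDF1.2b and THI2.2, and the part of root tissue in their change was not tested. The 8 flower markers and 9 seed markers had no named probe set. Over all probe sets the correlation of log2 signals was 0.953 between WT arrays, 0.95 between vip3 arrays and 0.941 to 0.946 between genotypes, which are correlations across probe sets and not across replicates.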

How the data were processed

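Per the labels, the authors made the deposited signal intensities, on a linear scale, with the MAS5 statistical algorithms, which correct background and mismatch signal and scale each array; low signals have large relative errors. The study's own calls used GCRMA values and limma; GCRMA values were not used here. Genome build and software version are not given in the sources used here.

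Control probe sets (64) were left out. Log2 signals of the other 22746 were compared with lmFit and eBayes (variance trend) of limma 3.58.1 in R 4.3.3. Benjamini-Hochberg adjustment was over all of them, with calls at an adjusted p under 0.05. The test was also run on simulated arrays. Their variances were drawn from the fitted trend, so that run cannot check the choice of the trend. With 2 arrays a genotype, a permutation of arrays cannot reach 0.05. The number of arrays limits the precision.

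Names came from GEO's platform annotation (13513 of 22810 probe sets had 1 symbol, 503 several, 8794 none), 13436 of them matched to a RefSeq table of TAIR10.1, used for names and gene order only. Members and lists were chosen with earlier results of these data known. Named genes were all members and relatives, list genes that were called or needed for their role, and the 3 nearest patterns of each member. ORA47, JMT and SAG101 were singled out after their values were seen. Alternatives were other offsets, scalings, variance priors and filters, a replicate block and removal of each array.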

Additional observations from a re-analysis of the deposited data

How the results depend on the processing

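With a constant prior variance 0 members, 0 list genes and 0 of all probe sets passed in limma, while 4 members and 3798 probe sets had an unadjusted p under 0.05; the cause of the lost calls was not tested. At an unadjusted p under 0.001 with a 2-fold change, 354 probe sets, 3 members and 0 list genes passed. Of 20 list genes, relatives included, 1 passed with all arrays (LCR68) and 2 without the 40% dimmest probe sets. Over the removal of each array, from 442 to 1332 probe sets, from 1 to 3 members and from 0 to 2 list genes passed, in fits where a genotype had a lone array.

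Of 85 member fold changes under the alternatives, 29 could not move, because the variance priors, the replicate block and the filters leave the fitted difference as it was. Of the other 56, 50 moved by less than 1 SD between replicates and 6 by more, and 0 called values reversed. Removal of 1 of 2 arrays cannot move a value by more than this SD, by construction. The values from those fits were therefore bound to be among the 50, and their place there says nothing about stability. With log2 of the signal plus 16 PDF2.1 was at 0.89. With log2 of the signal plus 64 PDF2.5 was at 0.28, PDF2.1 at 0.32, PDF1.2 at -1.92, THI2.2 at -1.92 and PDF1.2b at -2.04; the added constant pulls dim signals together by construction. Over the removal of each array the ranges were -3.31 to -2.29 for PDF1.2, -4.97 to -2.94 for PDF1.2b, -1.32 to 0.26 for PDF1.4, 2.29 to 3.75 for PDF2.1, 0.70 to 2.70 for PDF2.5, -0.64 to 0.26 for THI2.1 and -2.27 to -1.99 for THI2.2. With the replicate block, 2339 probe sets, 3 members and 1 list gene passed. The replicate numbers were not treated as pairs, because the deviations of same-numbered arrays from their group means had a correlation of -0.044.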
